A study of Mus musculus with 8 samples.

Results

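Vegfa encodes vascular endothelial growth factor A, a secreted protein that drives the growth of blood vessels. Its RNA was examined here for binding by Zmat3, using every called crosslinking and immunoprecipitation (CLIP) peak on the minus strand with its midpoint in the Vegfa span of chromosome 17 (mm10, 46016993–46032377, 15385 nt). The rule gave 137 of the 978429 peaks in the 7 deposited lists. By list, 19, 20 and 21 Vegfa peaks were found for the immunoprecipitates (IP) of controls 1 to 3, at the same positions over input and over the knockout IP, and 17 for the knockout. Vegfa had been picked for its role in tumour growth and because a site was known to be present in all 3 controls, so the values of these peaks are a description and were not tested.

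The study mapped Zmat3-bound RNA in mouse embryonic fibroblasts transformed with the adenoviral oncogene E1A and with HrasG12V. The controls were 3 samples of Cas9-expressing cells (Cas9+;E1A;HrasG12V), each transduced with a different negative control guide RNA. The guides were EV in control 1, SPA in control 2 and ACOCA in control 3. After 3 days of puromycin selection the controls were cultured for another 10 days. The labels do not say whether the controls came from 1 line or from several. The knockout was 1 line, Zmat3-/-;E1A;HrasG12V, for which the labels give no Cas9, no guide RNA and no selection or culture time. Loss of Zmat3, absence of Cas9, absence of transduction, any difference in selection or culture, and line identity therefore cannot be told apart. From UV-crosslinked cells, RNA bound to an anti-Zmat3 antibody was recovered from the 35 to 110 kDa part of a gel. The series holds 4 IPs and 4 inputs, and the inputs enter only as comparators.

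The Vegfa RNA is produced from 1 gene as several spliced forms, and RefSeq lists 10 transcripts for it. Secreted VEGF-A binds the receptor kinases encoded by Flt1 and Kdr, with the neuropilins as coreceptors. Low oxygen raises Vegfa transcription through the hypoxia-inducible factors, oncogenic Ras is known to raise Vegfa expression, and the stability of the mRNA is set by proteins that bind its long 3′ untranslated region. Zmat3 is a zinc finger RNA-binding protein, encoded by a p53 target gene, that acts on the splicing and stability of RNAs.

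Each peak carries a log2 fold and a −log10 p-value of the IP against the named comparator, both computed by the authors. Here an enriched peak is one whose log2 fold and −log10 p-value both reach 3. Read depth is unknown because the lists hold no counts, so no counting interval was computed. Errors are standard deviations (SD) over the 3 controls. The lists held 122284 to 153774 peaks for the controls and 167648 for the knockout. As a check of the label, 38 peaks were called in the Zmat3 gene itself in the knockout against 39 to 48 in the controls, which shows that the RNA was sampled and says nothing of the protein. Over the knockout IP, 4 of 42, 16 of 48 and 1 of 39 Zmat3 peaks were enriched in controls 1 to 3. Among all called peaks these shares were 0.621%, 1.09% and 0.648%. Over input, 0, 1 and 0 Zmat3 peaks were enriched. The difference was not tested. Of 12 fibroblast markers, 4 had called peaks in all 3 controls, including Fn1 with 59 to 79 peaks per IP and Vim with 13 to 21, whereas Col1a1, Col1a2, Thy1, Postn and Lox had 0 in every list. The 8 endothelial markers had 0 peaks in every list. Of 7 epithelial markers, Epcam had 9, 5 and 11 peaks in controls 1, 2 and 3 and 10 in the knockout, and Krt18 had 5 in control 2 and 8 in the knockout. Cdh1 had 1 in control 3 and 1 in the knockout, and the other 4 had 0 in every list. Of 6 macrophage markers, Cd68 was called in every IP, with 1 to 3 peaks, and the other 5 in none.

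Sequence was available for 2 short stretches under called Vegfa peaks, both from RefSeq windows of GRCm38.p6 around annotated transcript starts, and they are shown because they give the RNA under called peaks at the 5′ end and upstream of an inner start. The inner stretch ends 201 nt before that start (46025163). The strongest Vegfa site lies outside these windows, and its sequence was not used here. Both stretches are written as RNA, 5′ to 3′, on the minus strand. In the upper one, from the 5′-most peak of all 3 controls, capitals mark the 3 nt that were also called in the knockout. In the other, a whole peak of control 2, capitals mark the 31 nt shared with control 3.
Vegfa 5′ end, chr17:46032332-46032361: gcagCCGagcugcagcgaggccgcggcacu
Vegfa upstream of the inner start, chr17:46025364-46025413: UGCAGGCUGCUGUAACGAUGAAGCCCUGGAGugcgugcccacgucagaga
The 5′ stretch had 76.7% G and C and 6.67% U, and the inner stretch 60% G and C and 18% U. Neither carried an enriched peak, and their values are given with the 5′ peaks below.

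Vegfa RNA had a single strong site, near its 3′ end, in all 3 controls. One peak per control was enriched, and it was the same position over input and over the knockout IP (chr17:46018942-46019058, minus strand, 117 nt over the 3 controls). No other Vegfa peak was enriched in any list, and the knockout had none. Among all called peaks, those enriched over input made up 1.02%, 1.05% and 0.494% in controls 1, 2 and 3, and 0.316% in the knockout. Set against the knockout IP, the shares were 0.621%, 1.09% and 0.648%.

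Over input, the site had a log2 fold of 4.15 in control 1, 4.73 in control 2 and 3.42 in control 3, with a mean of 4.10 ± 0.65 (SD, n = 3). On the linear scale these are 17.8-fold, 26.5-fold and 10.7-fold. All 3 controls thus lay above the threshold, control 3 by the least. The authors' −log10 p-values there were 23.2, 26.4 and 11.3.

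Over the knockout IP, the log2 fold at the site was 6.24 in control 1, 5.75 in control 2 and 5.41 in control 3, with a mean of 5.80 ± 0.42 (SD, n = 3). The −log10 p-values were 36.8, 40.8 and 29.4. The order of the controls differed between the comparators, with control 2 highest over input and control 1 highest over the knockout IP. The 3 lists share the 1 knockout library and are not independent of each other. In the knockout no peak was called at the site, and the nearest one lay 241 nt downstream along the RNA (46018649–46018700) with a log2 fold over input of −0.031. The knockout level at the site itself is therefore unknown, and the sources used here do not give how the authors scored positions with few knockout reads. With 1 knockout against 3 controls, an exact permutation test over libraries could not go below p = 0.25, and none was made.

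**Figure D1:**
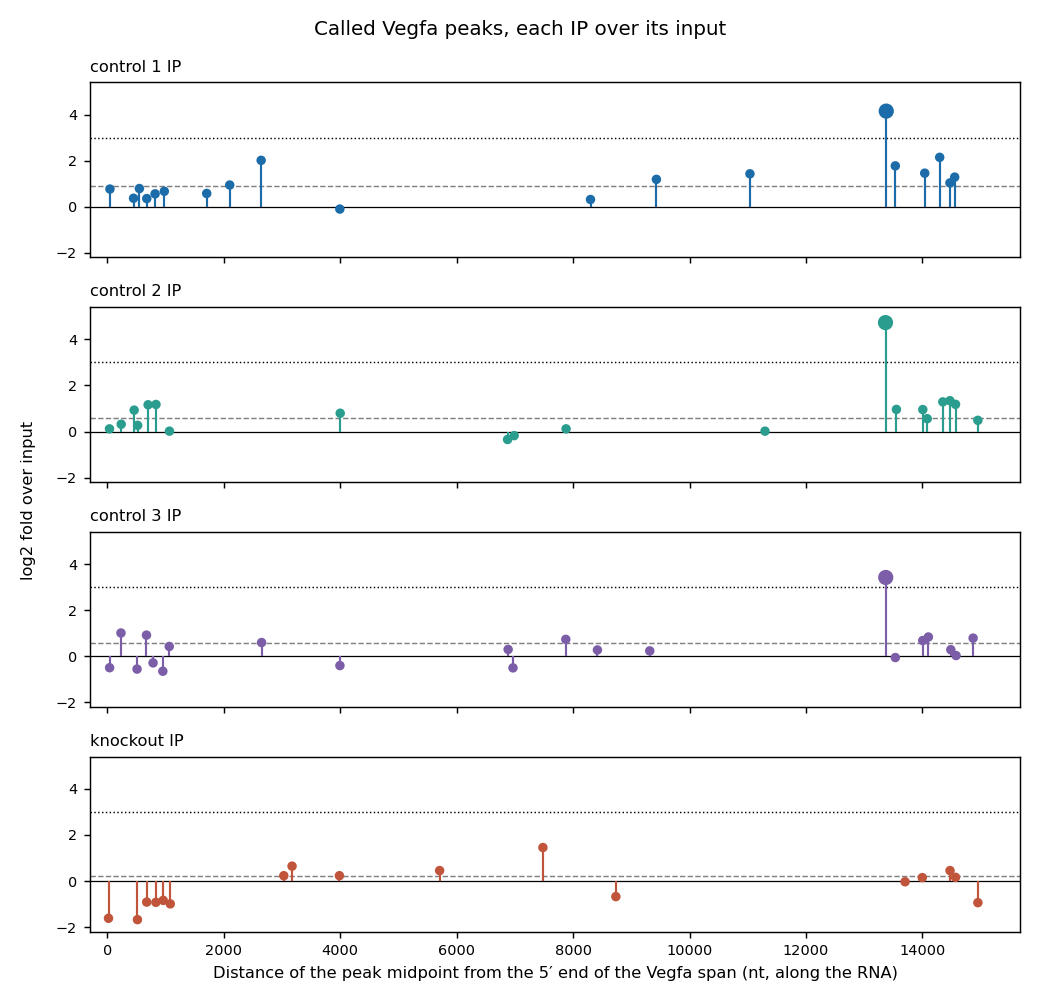
Each point is a called Vegfa peak, plotted by the distance of its midpoint from the 5′ end of the gene span (nt, x axis) and its log2 fold over input (y axis), in 1 panel per IP. The dashed grey line is the median of all peaks in that list and the dotted line the threshold of 3. The large point is the site, at 4.15, 4.73 and 3.42 in controls 1 to 3 and without a called peak in the knockout.

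The site was called at nearly the same place in each control. The peak spanned 46018942–46019054 in control 1, 46018963–46019058 in control 2 and 46018957–46019056 in control 3, lengths of 113, 96 and 100 nt. On the minus strand the higher coordinate is the 5′ edge of the bound RNA. The 5′ edges lay within 4 nt of each other and the 3′ edges within 21 nt, against medians of 16 and 18 nt over the 77 regions supported by all 3 controls in the whole series. The 92 nt from 46018963 to 46019054 were common to the 3 controls. The site ends 1949 nt before the 3′ end of the gene span, and its midpoint lies at 86.9% of the span from the 5′ end. Whether it lies in an exon, an intron or the 3′ untranslated region was not analysed here, because no exon annotation was used.

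The next highest Vegfa peaks lay below the threshold in every list, with log2 folds well under that of the site. Over input they reached 2.14 in control 1 (46018049–46018111), 1.34 in control 2 (46017869–46017939) and 1.01 in control 3 (46032121–46032163). Against the knockout IP they reached 2.60 in control 1 (46018049–46018111) and 2.07 in control 3 (46023036–46023084). In control 2 the next highest, 2.36, was the position next to the site (46018782–46018864). The gap between the site and the next peak over the knockout IP was 3.64, 3.39 and 3.34 log2 units in controls 1 to 3. The next peaks lay at different positions in each control, and only the site ranked highest in all 6 control lists.

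Within whole lists, the site ranked 12th of 129333 peaks over the knockout IP in control 1, 54th of 153774 in control 2 and 47th of 122299 in control 3. Over input it ranked lower, at 432, 224 and 623. Per gene, 0.0215% of the 9293 genes with peaks in control 1 had a higher best peak over the knockout IP than Vegfa, 0.410% of 9747 in control 2 and 0.321% of 9045 in control 3. Over input these shares were 2.55%, 1.72% and 4.02%. Because no knockout peak was called at the site, its ranks over the knockout IP rest on an unknown knockout level. In control 1 its exact log2 fold over the knockout IP recurred at 1 other peak of the list.

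Of the 77 regions supported by all 3 controls, Vegfa was 12th by its mean log2 fold over the knockout IP (median of the regions 4.71) but 49th by its mean over input (median 4.34). Vegfa therefore stood in the upper part of these regions on one comparator and in the lower part on the other. All of the regions were selected on both folds, so these ranks are a description. Of the 77, 72 had no called knockout peak, as Vegfa had none.

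**Figure D2:**
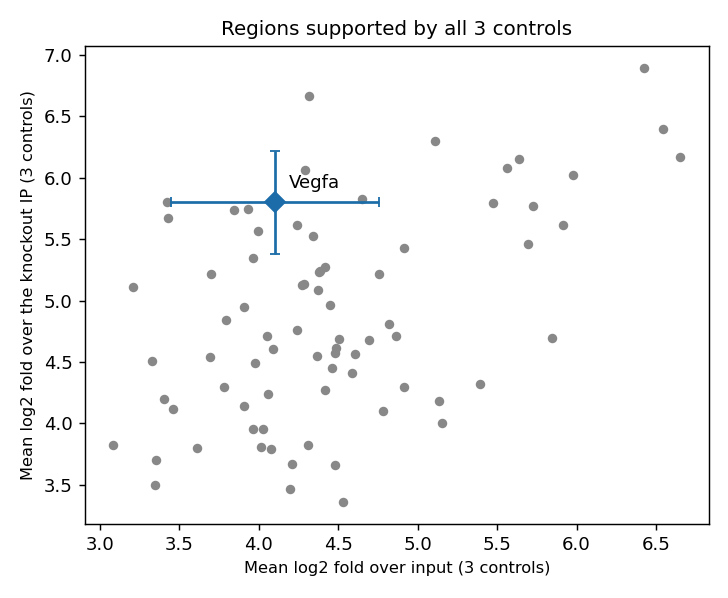
Each point is 1 of the 77 regions supported by all 3 controls, with its mean log2 fold over input (x axis) and over the knockout IP (y axis) across the 3 controls; both axes begin above 0. The diamond is Vegfa at 4.10 and 5.80, with bars of 1 SD (n = 3), in the upper part of the y range and left of the middle of the x range.

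Away from the site, Vegfa RNA was recovered mainly at both ends of the gene with log2 folds over input near those of other RNAs. Over input, the remaining peaks had a median log2 fold of 0.87 in control 1 (18 peaks), 0.56 in control 2 (19) and 0.28 in control 3 (20). The medians of all called peaks in these lists were 0.90, 0.60 and 0.60, which puts the rest of Vegfa at −0.033, −0.044 and −0.32 relative to them. In the knockout the 17 Vegfa peaks had a median of −0.031, against 0.23 for all of its peaks. In every IP the rest of the Vegfa RNA was thus slightly under the median of its list.

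Over the knockout IP, the remaining peaks had medians of 1.70, 1.30 and 1.27 in controls 1 to 3, against 1.18, 0.88 and 1.00 for all peaks of the same lists. Relative to its list, the rest of Vegfa was higher by 0.52, 0.42 and 0.27, a mean of 0.40 ± 0.12 (SD, n = 3). Among genes with at least 10 peaks outside regions, 10.8%, 29.2% and 24.7% had a median at least as high as that of Vegfa in controls 1 to 3. The medians of all peaks in these lists themselves lay above 0.

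The site exceeded the rest of its own transcript by 4.54, 4.45 and 4.14 log2 units over the knockout IP, a mean of 4.38 ± 0.21 (SD, n = 3). Over input the excess was 3.28, 4.17 and 3.14, a mean of 3.53 ± 0.56 (SD, n = 3). This excess is taken within each list, so a shift common to all Vegfa peaks drops out of it. Among the 60 regions with such a value, Vegfa was 17th by this excess over the knockout IP, where the median region had 3.55.

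**Figure D3:**
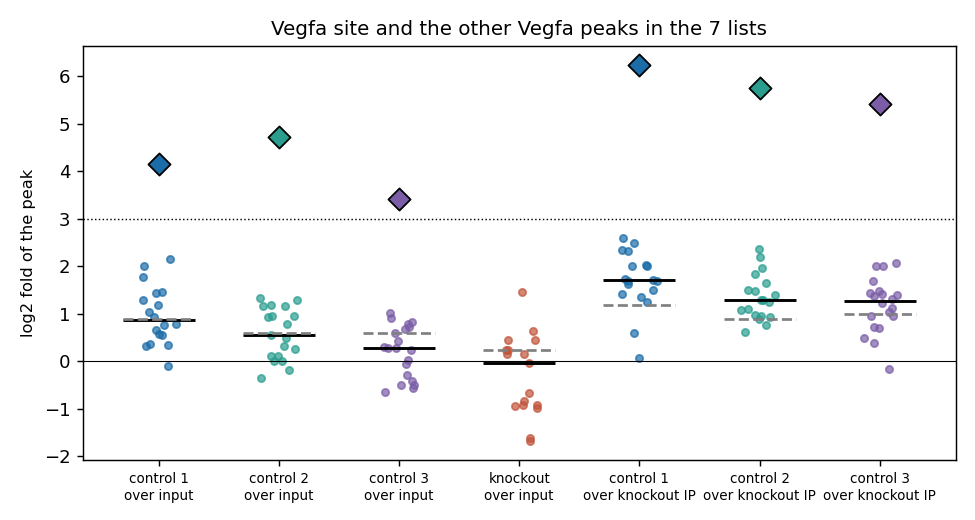
Points are the log2 folds (y axis) of all Vegfa peaks in each of the 7 lists (x axis), with the site as a diamond; points are spread sideways for legibility. Black bars are the median of the peaks outside the site and dashed grey bars the median of the whole list. The site stands at least 2.01 above every other Vegfa peak of its list, and the knockout has no diamond.

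Nearly all Vegfa peaks lay above 0 over the knockout IP, namely 19 of 19, 20 of 20 and 20 of 21 in controls 1 to 3. The shares among all called peaks were 88.6%, 83.5% and 84.9%. Over input, 18 of 19, 18 of 20 and 14 of 21 Vegfa peaks lay above 0, with 82.7%, 80.5% and 74.7% of all peaks. In the knockout, 8 of 17 did, with 58.9% of all peaks. Control 3 had the most Vegfa peaks under input among the controls, with 7.

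**Figure D4:**
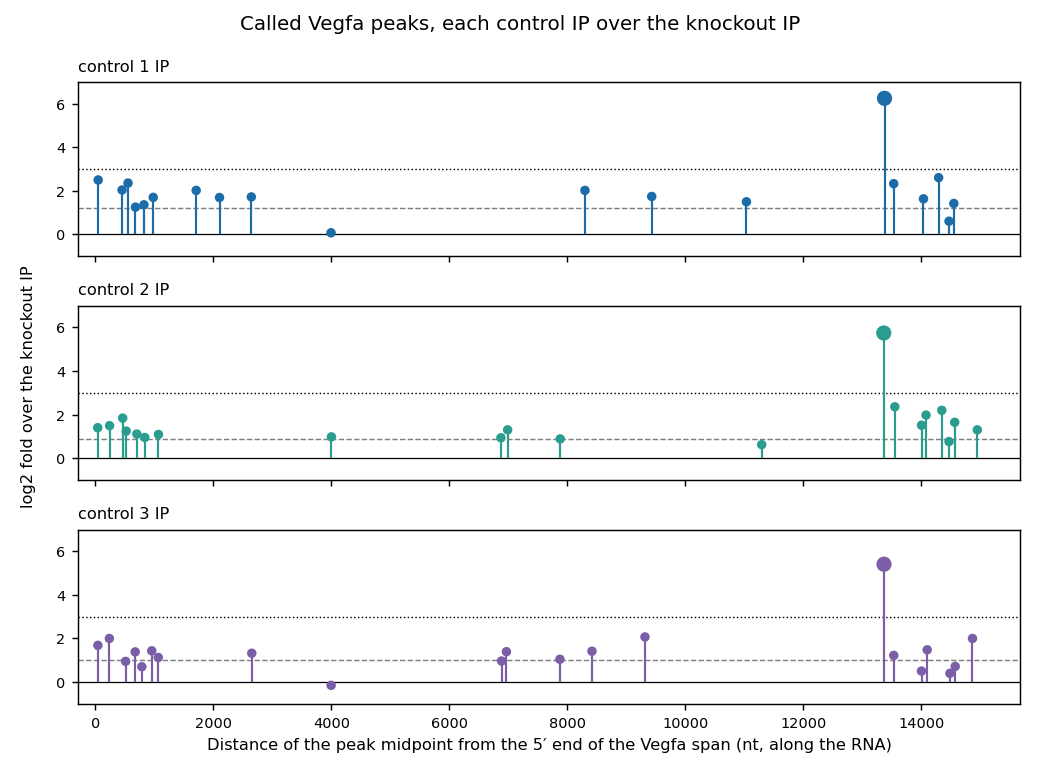
Called Vegfa peaks in each control IP, by distance from the 5′ end of the gene span (nt, x axis) and log2 fold over the knockout IP (y axis). Dashed grey lines mark the list medians of 1.18, 0.88 and 1.00 and dotted lines the threshold of 3. The site is the large point, at 6.24, 5.75 and 5.41, and 1 other peak lies below 0, in control 3.

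The 3 controls together gave 25 separate called positions in Vegfa, of which 8 were called in all 3, 7 in a pair of controls and 10 in 1. Peaks were placed mainly in the last 2500 nt and the first 1500 nt of the span. These bounds were drawn after the positions had been seen, and the segments were not tested. Called peaks covered 8.92%, 8.64% and 8.16% of the span in controls 1 to 3 and 4.19% in the knockout. The median peak length was 61, 55 and 53 nt in the controls and 31 nt in the knockout.

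Downstream of the site, in the last 2500 nt, Vegfa had 5, 7 and 6 further peaks in controls 1 to 3. Their medians were 1.46, 0.96 and 0.48 over input, and 1.63, 1.65 and 0.97 over the knockout IP. The position next to the site (46018782–46018878) had 2.32, 2.36 and 1.22 over the knockout IP but 1.77, 0.96 and −0.055 over input. At this neighbouring position control 3 was the lowest control over both comparators, and no control reached the threshold. The knockout had 5 peaks in this segment, with a median of 0.15 over input.

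At the 5′ end the knockout had the lowest median over input, as it had in the last 2500 nt, and here it lay below 0. Between these ends it was not the lowest, with a median of 0.34 against 0.94, 0.016 and 0.27 in controls 1 to 3. The medians of all called peaks were also lowest in the knockout, at 0.23 against 0.90, 0.60 and 0.60. Within the first 1500 nt, the peaks had a median of 0.62 over input in control 1 (6 peaks), 0.32 in control 2 (7) and −0.29 in control 3 (7), against −0.96 in the knockout (6). All 6 knockout peaks lay below 0, between −1.67 and −0.84. In control 3, 4 of 7 did so, and in controls 1 and 2 none did. Among all called peaks, 58.9% lay above 0 over input in the knockout and 74.7% in control 3. Against the knockout IP, the 5′ medians were 1.86, 1.24 and 1.38.

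The 5′-most peak, whose sequence is given above, began within 12 nt of the annotated transcript start in control 2 and was called in all 4 IPs. Its log2 fold over input was 0.77, 0.12 and −0.50 in controls 1 to 3 and −1.62 in the knockout. Over the knockout IP it was 2.49, 1.40 and 1.68. The knockout was the lowest of the 4 IPs there, although its called peak was only 3 nt long (46032355–46032357). Upstream of the inner start, the peak shown in sequence had −0.18 over input in control 2 and −0.50 in control 3, with 1.30 and 1.39 over the knockout IP. Neither control 1 nor the knockout had a called peak in that window.

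Of the 17 knockout peaks in Vegfa, 8 overlapped a peak in all 3 controls and 6 overlapped none. At 5 of these 8 positions the knockout had a lower log2 fold over input than every control, and at 0 a higher one. Over all genes, the knockout was below all 3 controls at 54.9% of positions called in all 4 IPs and above them at 11.8%, so the Vegfa share was close to the background. The 5 positions were the 4 within 1500 nt of the 5′ end and 1 at 46018354–46018403, where the knockout had 0.15 and the controls 1.46, 0.95 and 0.68. The largest knockout value in Vegfa, 1.45 at 46024880–46024910, lay at a position called in no control.

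**Figure D5:**
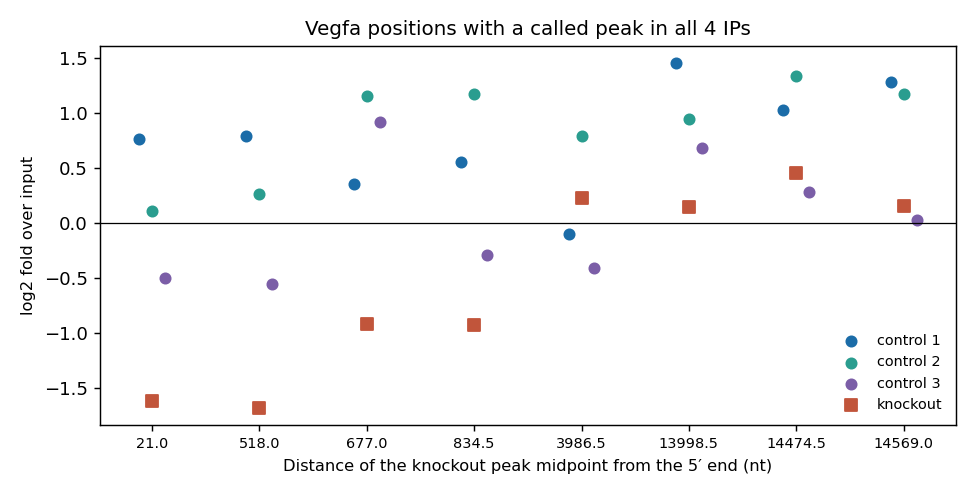
Log2 fold over input (y axis) at the 8 Vegfa positions with a called peak in all 4 IPs, ordered by distance from the 5′ end of the gene span (nt, x axis, not to scale). Circles are controls 1 to 3 and squares the knockout. The squares lie lowest at the 4 positions nearest the 5′ end, between −1.67 and −0.91, and between 0.15 and 0.45 at the other 4.

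The lists also allow the inputs to be compared. The log2 fold over the knockout IP, minus that over input, plus the knockout's own fold over input, leaves the control input over the knockout input, if the authors scaled all lists alike. This was computed where a control and a knockout peak overlapped by at least 50% of each. Vegfa had a median of 0.019 in control 1 (5 positions), −0.12 in control 2 (6) and 0.064 in control 3 (7). The medians of all such positions were −0.62, −0.41 and −0.37, so Vegfa lay 0.64, 0.29 and 0.43 above them. Over the knockout IP, the rest of Vegfa was higher than its list by 0.52, 0.42 and 0.27 in controls 1 to 3. The input offsets were thus of a similar size to these values. Single positions over all genes spread more widely than the offsets. The paired peaks can overlap in part only, so control and knockout folds can cover unlike intervals. The single Vegfa positions spread from −1.15 to 0.84, and the site itself gave no value because the knockout had no peak there. The part of these input differences in the folds over the knockout IP was not tested.

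No called peak lay on the opposite strand of the Vegfa span in any list. There was also none on the minus strand within 10000 nt on either side, so the span rule had no members just outside it. The outermost peaks inside it began 412 nt from the 3′ end and ended 12 nt from the 5′ end.

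The other VEGF ligands and receptors had no site of this kind. Of the 4 other ligands only Vegfb, and of the 5 receptors and coreceptors only Flt1, had peaks in all 3 controls. Among all genes with such peaks, 2.36% held a region enriched over both comparators in at least 2 controls. Vegfa was picked for its site, so no result is drawn from the contrast. The ligand and receptor lists, and the hypoxia lists that follow, were drawn up with earlier results of these data known. Vegfb, a ligand of Flt1, had 5, 4 and 4 called peaks in controls 1, 2 and 3, with 2 in the knockout, and none was enriched. Vegfc, a lymphatic growth factor, had 2, 1 and 0, with 1 in the knockout. Vegfd had 1 peak, in the knockout, and Pgf had none in any list. Vegfa was the one ligand with 10 or more peaks in each IP.

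Among the receptors, Flt1 was called in every IP, with 55, 20 and 46 peaks for the controls and 13 for the knockout. Its peak at chr5:147587143-147587274 on the minus strand was enriched over input in control 1 (3.84), and the overlapping peak of control 3 was too (3.92), while control 2 had 2.34 and the knockout 1.45. Over the knockout IP these Flt1 peaks had 1.80, −0.55 and 1.74 in controls 1 to 3, under the threshold. Another Flt1 position, chr5:147681646-147681753, showed the reverse, with 3.92 and 3.90 over the knockout IP in controls 1 and 3 and −0.61 and −1.08 over input. Flt1 therefore had no position enriched over both comparators. The coreceptor gene Nrp2 had 29, 0 and 39 peaks for the controls and 4 for the knockout. Nrp1 had 11 peaks and Flt4 30 in the knockout, against 0 for Nrp1 and at most 2 for Flt4 in the controls. Kdr, the main endothelial receptor, had 0 in every list.

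A region enriched over both comparators in at least 2 controls was found in 194 (2.36%) of 8205 genes that had peaks in each of the 3 controls. Of the 16 genes of oxygen sensing by hypoxia-inducible factors, 12 had peaks in all 3 controls and 1, Crebbp, held a region. Crebbp, a transcriptional coactivator, had a log2 fold of 3.04 ± 0.07 over input (SD, n = 3) and of 4.95 ± 0.06 against the knockout IP (SD, n = 3), supported by controls 1 and 2. The 22 hypoxia-induced genes had 18 with peaks in all 3 controls and 0 with a region. Of 25 other secreted factors that promote or restrain vessel growth, 4 had peaks in all 3 controls and 0 a region.

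All 13 genes for RNA-binding proteins and kinases known to act on Vegfa mRNA had peaks in all 3 controls, and 2 held a region. Hnrnpl, which binds the Vegfa 3′ untranslated region in human cells, had 2.85 ± 0.89 over input (SD, n = 3) and 3.23 ± 0.04 against the knockout IP (SD, n = 3), supported by controls 1 and 2. Srsf5, a splicing factor, had 3.40 ± 0.98 and 3.61 ± 0.95 in the same order (SD, n = 3), supported by controls 2 and 3. Both lay below Vegfa over the knockout IP in every control. The median of the gene medians over the knockout IP for this list was 0.85, 0.68 and 0.53 in controls 1 to 3, against 1.18, 1.03 and 1.17 over all genes with peaks. For the hypoxia-induced genes it was 1.18, 1.09 and 1.00, and for oxygen sensing 1.18, 0.88 and 1.17. The 25 other secreted factors lay lowest of these lists, at −0.061, 0.034 and 0.0071, and 12 of them had no peak in any control. These differences were not tested.

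The genes most like Vegfa were sought by the highest log2 fold of each gene in each of the 7 lists, as the Euclidean distance over these 7 values among 7897 genes. Afdn, which encodes the junction protein afadin, was nearest at a distance of 0.98. Its highest values were 3.56, 5.06 and 3.55 over input in controls 1 to 3, 5.85, 5.69 and 5.67 over the knockout IP, and 1.97 in the knockout. Dcaf8, a substrate receptor of a ubiquitin ligase, followed at 1.41, then Lars at 1.48, Ilkap at 1.56 and Mcph1 at 1.67. Lars encodes the cytosolic leucyl-tRNA synthetase, Ilkap a phosphatase and Mcph1 a protein of chromosome condensation. Afdn, Dcaf8 and Ilkap held a region supported by all 3 controls and Mcph1 one supported by 2, whereas Lars held none, so the likeness covers the size of the highest values and not their position.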

How the data were processed

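CLIP peak lists from 3 control IPs and 1 knockout IP were used. Per the submitters' processing notes the build is mm10; the sources used here do not give the aligner, the caller or the handling of duplicates. No file has a header. From their values and layout, each peak holds a −log10 p-value, capped by the authors at 400, and a log2 fold of the IP over its input (4 lists) or over the knockout IP (3 lists), both as deposited. Whether the controls were grown or processed in batches is not stated, and SDs measure the spread between the 3 controls.

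Positions were made 1-based. Genes came from the RefSeq table of GRCm38.p6 by peak midpoint; strand was known for 17491 of 21896 protein-coding genes and required where known, and peaks in several genes were not assigned. Peaks enriched over input were kept if the same control had an overlapping peak (1 nt or more) enriched over the knockout IP. They were merged across controls into regions, which needed 2 controls. Where several peaks overlapped a region, the highest log2 fold was taken. Region calling was checked on lists with planted peaks and no other signal, which tests the code and not its behaviour on noisy data. Vegfa, the gene lists and the thresholds were chosen with earlier results of these data known. Named genes were the VEGF ligands and receptors, members of the fixed lists with a region, and the 5 genes most like Vegfa; marker genes are named with the label check. Alternatives were other thresholds, overlaps and summaries, and leaving out each control. Python 3.11.15, NumPy 2.4.6 and pandas 2.3.3 were used.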

Additional observations from a re-analysis of the deposited data

Results flagged for a closer look

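The median log2 fold over input of the Vegfa peaks outside the site was −0.031 in the knockout, below 0, while it was above 0 in all 3 controls (0.87, 0.56 and 0.28). The medians of all called peaks were 0.23 in the knockout and 0.90, 0.60 and 0.60 in controls 1 to 3. Relative to these, the knockout stood at −0.26, within the range of the controls (−0.033, −0.044 and −0.32). The knockout value is close to 0, the peaks called differ between libraries, and the difference was not tested. At 46031675–46031725, 677 nt from the 5′ end, the knockout peak had −0.91 over input, while the overlapping peaks of controls 1 to 3 had 0.36, 1.16 and 0.92. This position is listed because the knockout and every control lay on opposite sides of 0, and the difference was not tested either. Over all genes, the knockout lay below all 3 controls at 54.9% of positions called in all 4 IPs.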

How the results depend on the processing

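Of 36 alternative values, 35 stayed close to the reported ones. The exception was the number of enriched Vegfa peaks, 6 over the 7 lists, which became 15 when a log2 fold of at least 2 sufficed; it was 5 when a log2 fold of 4 was required, and 6 when the −log10 p-value had to reach 5 or had no threshold. The number of Vegfa regions was 1 under every alternative run, from enrichment over 1 comparator alone to support by all 3 controls, and leaving out each control in turn. Vegfa was picked with its site known in all 3 controls, so requiring all 3 or leaving out 1 had to keep this region. Either comparator alone had to keep it too, as did a −log10 p-value of 5, since the lowest at the site was 11.3. So did a stricter overlap, because the positions were the same over both comparators. Changing how peaks overlapping the site were combined could not alter its folds, because 1 peak overlapped it in each control list. Leaving out each control gave a mean log2 fold at the site of 3.79 to 4.44 over input and 5.58 to 5.99 over the knockout IP. For the other Vegfa peaks, relative to their list, it gave −0.18 to −0.039 over input and 0.34 to 0.47 over the knockout IP. No paired analysis was possible because the controls and the single knockout share only 1 replicate number and no test was made. The lists hold no read counts, so the precision that depth sets at any Vegfa peak is unknown, and the 1 knockout library has no spread of its own.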
